A study of Mus musculus with 6 samples.

Results

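The genes described here are 10 components of the transforming growth factor beta (TGF-beta) pathway. They are the ligand genes Tgfb1, Tgfb2 and Tgfb3, the receptor genes Tgfbr1 and Tgfbr2, the signal transducer genes Smad2, Smad3 and Smad4, the inhibitory SMAD gene Smad7, and the feedback gene Skil. Members were chosen by gene symbol, and each of the 10 symbols matched 1 of the 57508 genes in the deposited tables. All 10 passed the filter on low counts. RNA of KPC1199 cells, labelled as mouse pancreatic tumour cells, was sequenced in 3 WT libraries and 3 ACSL5 knockdown libraries. The knockdown libraries are called KO in their titles and knockdown in their genotype field. All 6 library names start with siACSL5. WT names go on with CY3 and knockdown names with a number, and the labels explain neither. The series states that the comparison was made to learn what ACSL5, an enzyme that activates long-chain fatty acids, does as pancreatic ductal adenocarcinoma progresses.

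TGF-beta ligands are secreted in a latent form and released outside the cell. The active ligand binds TGFBR2, which then phosphorylates TGFBR1. TGFBR1 phosphorylates SMAD2 and SMAD3, which join SMAD4 and move to the nucleus to regulate genes. Among the induced genes are inhibitors of the pathway itself, Smad7 and Skil. In pancreatic cancer the pathway is known both for restraining growth of epithelial cells and for promoting epithelial-mesenchymal transition, and SMAD4 is a frequently lost tumour suppressor.

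The libraries held 21794244 to 29996194 expected counts, which are estimated read counts per gene. Levels are given as CPM, counts relative to library size after TMM, a correction for composition, and always in the order of replicates 1, 2 and 3. Acsl5 measured 342.4, 265.2 and 270.2 CPM in WT and 49.8, 55.6 and 57.2 CPM in knockdown cells, so the targeted transcript was lower in each knockdown library. Its log2 fold change without WT replicate 1, -2.32 (SE 0.0638, adjusted p = 5.95e-08 in edgeR), ranked first by p of all genes tested. With all 6 libraries it was -2.43 (SE 0.167), and its adjusted p of 0.0619 did not pass the threshold of 0.05. Acsl5 overlaps Zdhhc6 on the minus strand (1987.8 mean expected counts). Since strandedness is not given in the sources used here, reads of the part they share cannot be told apart. WT replicate 1 stood apart. Its correlation with each other library, over genes, was 0.902 to 0.921, whereas the remaining pairs reached 0.972 to 0.992. Among the better expressed genes, the longest 10% lay in this library 1.04 log2 units below the mean of the other libraries (median -1.04), and the shortest 10% lay 1.24 above. Fold changes below are therefore given without it and with all 6 libraries. The 7 epithelial and ductal markers were all above 1 TPM on average, and TPM is a level corrected for gene length. Their summed TPM was 8539 to 9067 in WT and 7890 to 8636 in knockdown libraries. Of 8 fibroblast markers 3 were above 1 TPM, namely Pdgfra (15.5), Pdgfrb (4.59) and Col6a3 (2.24). Lum and Fap were listed at 0 in every library. The summed fibroblast markers were 8.22 to 32.55 TPM in WT and 23.48 to 24.5 TPM in knockdown libraries. Without WT replicate 1, Pdgfra was lower in knockdown cells and Pdgfrb higher. Their log2 fold changes were -0.62 and 0.73 (adjusted p = 2.36e-05 and 4.68e-04 in edgeR). Of 8 immune markers only Cd68 was above 1 TPM, and Adgre1 and Cd3e were listed at 0 throughout. The summed immune markers were 3.55 to 6.53 TPM in WT and 7.19 to 8.59 TPM in knockdown libraries, and their part in the results was not tested. Of 5 endothelial markers only Vwf was above 1 TPM. No label says whether libraries of a group came from separate cultures, so p-values measure the spread between libraries, which may be technical.

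Smad7, Tgfbr2 and Tgfb1 were higher, and Tgfb2, Tgfbr1, Tgfb3 and Skil lower, in knockdown cells than in WT replicates 2 and 3. Smad2, Smad3 and Smad4 did not pass the test. The test was edgeR's quasi-likelihood F test over all genes, with Benjamini-Hochberg adjustment and a threshold of 0.05 on the adjusted p. In total 7 of the 10 members were called, 3 higher and 4 lower, where 34.3% of the 15152 genes tested were called, 16.3% higher and 18% lower. Under other settings the calls of Tgfb1 and Skil were the least stable of the 7. Both were lost with the trend of each library's counts over GC content removed, where the sign of Tgfb1 turned. The median log2 fold change of the members was -0.13, against -0.01 over all genes tested. With all 6 libraries edgeR called 0 of the 10 members and 0% of 14679 genes. Of all genes 2351, or 16%, had an unadjusted p below 0.05 there. Among the members only Tgfb2 and Smad7 did. DESeq2, run on the same 6 libraries, called Smad7 alone among the members, as higher, and 7.68% of all genes, 3.9% as higher. In 3 of 10 members no knockdown library overlapped any WT library in CPM, with Tgfbr2 and Smad7 above and Tgfb2 below. Over all genes 18.7% lay above in this way and 15.6% below. Log2 fold changes are knockdown minus WT throughout.

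**Figure D1:**
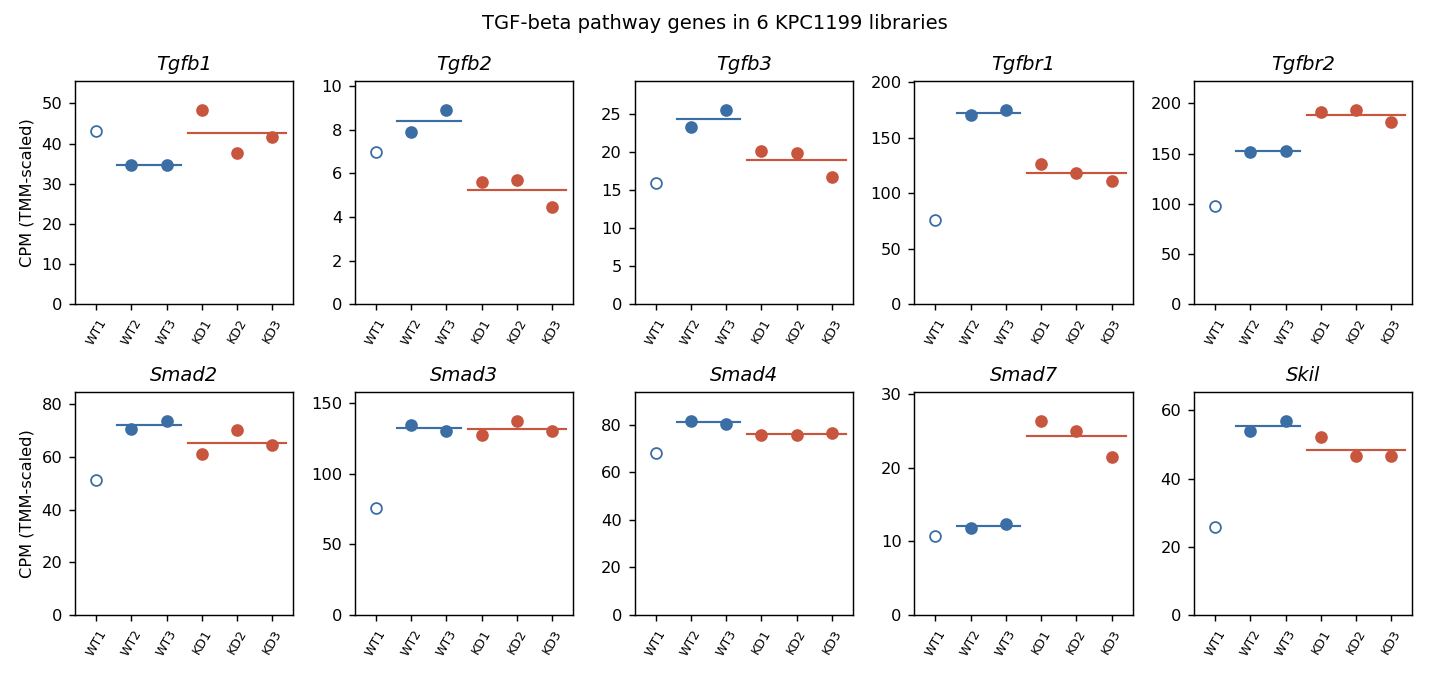
Level of each of the 10 genes in CPM scaled by TMM (vertical axis, from 0) in each library (horizontal axis), with WT in blue, ACSL5 knockdown (KD) in red and WT replicate 1 as an open point. Lines are the mean of WT replicates 2 and 3 and the mean of the 3 knockdown libraries. Smad7 and Tgfbr2 are higher in every knockdown library than in any WT library, and Tgfb2 is lower, while WT replicate 1 is the lowest library for all genes shown but Tgfb1 and Tgfb2.

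**Figure D2:**
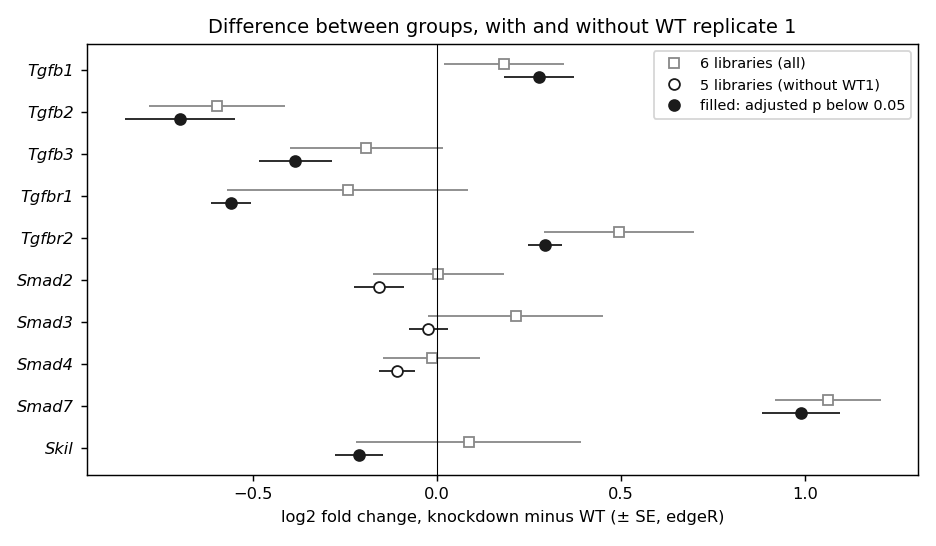
Log2 fold change, knockdown minus WT, with its SE from edgeR (horizontal axis) for the 10 genes (vertical axis), over all 6 libraries (grey squares) and without WT replicate 1 (black circles). Filled symbols have an adjusted p below 0.05, which 7 genes reach without WT replicate 1 and none with all 6 libraries, and Smad7 lies farthest from 0 in both.

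The 3 ligand genes differed in direction and in level. Tgfb1 encodes the most studied of the ligands. In WT cells Tgfb1 stood at 43.2, 34.6 and 34.7 CPM, and in knockdown cells at 48.3, 37.6 and 41.6 CPM. WT replicate 1 was above 2 of the knockdown libraries. Without it the log2 fold change was 0.28 (SE 0.0947, adjusted p = 0.0463 in edgeR), and with all 6 libraries it was 0.18 (SE 0.163, adjusted p = 0.587). Tgfb1 has the highest GC content of the 10 transcripts, 62.5%, against 41.0% to 56.9% in the others. With the trend of each library's counts over GC content removed, the log2 fold change of Tgfb1 without WT replicate 1 was -0.20 (adjusted p = 0.0549), so its direction depends on that correction. The call was also lost when WT replicate 2, WT replicate 3 or knockdown replicate 3 was left out in turn (0.28, 0.28 and 0.30). Tgfb1 (ENSMUSG00000002603) lies on chromosome 7 from 25687002 to 25705077, plus strand, in the mouse build GRCm38 used for all positions here.

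Tgfb2 was the scarcest member, with 121 to 274 expected counts per library. Tgfb2 measured 6.99, 7.89 and 8.89 CPM in WT and 5.58, 5.68 and 4.46 CPM in knockdown cells. Every knockdown library was below every WT library, WT replicate 1 included. The log2 fold change was -0.70 (SE 0.151, adjusted p = 0.00491 in edgeR) without WT replicate 1, and -0.60 (SE 0.184, adjusted p = 0.222) with all 6 libraries. The call was lost when WT replicate 3 was left out as well (-0.61, adjusted p = 0.0768). In TPM, WT replicate 1 was lowest of all at 1.11, against 2.95 and 2.94 in WT replicates 2 and 3 and 1.64 to 1.96 in knockdown libraries. Tgfb2 (ENSMUSG00000039239) lies on chromosome 1 from 186622792 to 186705989, minus strand.

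In WT cells Tgfb3, the ligand gene of mesenchymal and palate development, stood at 15.999, 23.3 and 25.5 CPM, and in knockdown cells at 20.2, 19.8 and 16.7 CPM. The knockdown libraries lay between WT replicate 1 and the other WT libraries. Its log2 fold change was -0.38 (SE 0.0996, adjusted p = 0.0127 in edgeR) without WT replicate 1, and -0.19 (SE 0.207, adjusted p = 0.650) with all 6 libraries. The call was lost without WT replicate 3 (-0.32, adjusted p = 0.141) and without knockdown replicate 3 (-0.29, adjusted p = 0.0506). Tgfb3 (ENSMUSG00000021253) lies on chromosome 12 from 86056745 to 86079041 on the minus strand. It overlaps Ttll5 on the plus strand (450.2 mean expected counts), and since strandedness is not given in the sources used here, reads of the shared part cannot be told apart.

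The receptor genes moved in opposite directions without WT replicate 1. Tgfbr2 encodes the type II receptor, which binds ligand first. In WT cells Tgfbr2 stood at 97.7, 151.96 and 152.6 CPM, and in knockdown cells at 191.7, 193.3 and 181.6 CPM. All knockdown libraries were above all WT libraries. The log2 fold change was 0.30 (SE 0.0465, adjusted p = 8.3e-04 in edgeR) without WT replicate 1 and 0.49 (SE 0.204, adjusted p = 0.314) with all 6 libraries. Tgfbr2 (ENSMUSG00000032440) lies on chromosome 9 from 116084293 to 116175360, minus strand.

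Tgfbr1 encodes the type I receptor ALK5, the kinase that phosphorylates SMAD2 and SMAD3. Tgfbr1 measured 75.4, 170.4 and 174.7 CPM in WT and 126.5, 118.3 and 110.8 CPM in knockdown cells. The knockdown libraries lay between WT replicate 1 and the other WT libraries, as for Tgfb3. Without WT replicate 1 the log2 fold change was -0.56 (SE 0.0549, adjusted p = 5.14e-05 in edgeR), which left 67.9% of the WT level. Of the 10 members Tgfbr1 had the smallest p in this fit, at rank 270 of 15152 genes. With all 6 libraries the log2 fold change was -0.24 (SE 0.327, adjusted p = 0.718). Tgfbr1 (ENSMUSG00000007613) lies on chromosome 4 from 47353222 to 47414931, plus strand.

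The transcript of Tgfbr1 has a 3' UTR of 4154 bases, and one site in it is shown because its 7 bases, GAACTAC, also occur in the coding sequence of Acsl5. Small interfering RNAs can pair through their seed with 3' UTRs of genes other than their target, and the labels give no sequence for those used in these cells. The 7 bases were chosen with the fold changes of these libraries known, so their presence supports nothing, and a part of such pairing in the change of Tgfbr1 was not tested. The 7 bases start at base 628 of the 3' UTR of Tgfbr1. They are shown within a window of 29 bases at chr4:47411394-47411422 (GRCm38, plus strand). The window around an occurrence in the coding sequence of Acsl5 is chr19:55291465-55291493, plus strand. Another occurrence in that coding sequence is not shown, and the bases that follow it differ from those that follow the site in Tgfbr1. The 3' UTR of Acsl5 itself also held a match to AACTACA. The lines read 5′ to 3′, with the 7 bases in capitals.
Tgfbr1: ggaaacgaacaGAACTACttaaaggcggt
Acsl5: gtggctgacatGAACTACttttcagtaaa
Besides Tgfbr1, which fell, Smad2 held 2 matches to GAACTAC or the overlapping AACTACA, and was not called. Smad7, which rose, held 1 match to AACTACA. The other 7 members held none. Of 10226 genes with a mean count of at least 100 and a 3' UTR of at least 50 bases, 11.9% held a match. That share is not matched for length, and a longer 3' UTR has more places for a match. The 3' UTRs of Tgfbr1, Smad2 and Smad7 have 4154, 6233 and 1570 bases. Only the transcript strand was searched, in the longest protein-coding transcript of each gene.

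The ratio of the receptors was chosen for description after these values were seen. Tgfbr2 over Tgfbr1, in TPM, gave 0.871, 0.898 and 0.870 in WT and 1.56, 1.56 and 1.66 in knockdown cells. WT replicate 1 lay with the other WT libraries in this ratio. The mean was 0.880 ± 0.0159 (SD, n = 3) in WT and 1.59 ± 0.0547 (SD, n = 3) in knockdown cells, 1.81 times as high. Of 14404 genes with a TPM above 0 in every library, 18.7% also had a ratio to Tgfbr1 that was higher in all knockdown than in all WT libraries. From expected counts divided by the deposited gene length, the ratio came to 0.922, 0.634 and 0.621 in WT and to 1.08, 1.16 and 1.17 in knockdown cells. In that unit WT replicate 1 was above the other WT libraries, and the groups still did not overlap.

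None of the transducer SMAD genes passed the test. Smad3 encodes a receptor-activated SMAD that binds DNA. In WT cells Smad3 stood at 75.8, 134.4 and 130.4 CPM, and in knockdown cells at 127.6, 137.3 and 130.1 CPM, so the groups overlapped. Its log2 fold change without WT replicate 1 was -0.02 (SE 0.0522, adjusted p = 0.777 in edgeR). Over all 6 libraries it was 0.21 (SE 0.239, adjusted p = 0.660).

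Smad2 encodes the other receptor-activated SMAD of TGF-beta signalling. Smad2 measured 51.2, 70.5 and 73.7 CPM in WT and 61.04, 70.4 and 64.7 CPM in knockdown cells. The log2 fold change without WT replicate 1 was -0.16 (SE 0.0673, adjusted p = 0.0965 in edgeR). Knockdown replicate 2 lay just under WT replicate 2, so the knockdown libraries did not overlap WT replicates 2 and 3, while WT replicate 1 was below all of them. Leaving out knockdown replicate 2 made Smad2 pass (-0.20, adjusted p = 0.0478). Over all 6 libraries it was 0.0045 (SE 0.178, adjusted p = 0.992). Smad4 encodes the shared partner of the activated SMADs. In WT cells Smad4 stood at 68.1, 81.7 and 80.5 CPM, and in knockdown cells at 75.8, 75.7 and 76.6 CPM. The log2 fold change without WT replicate 1 was -0.11 (SE 0.0488, adjusted p = 0.113 in edgeR), and with all 6 libraries it was -0.01 (SE 0.131, adjusted p = 0.964). In TPM the sign of Smad4 was the other way, with 12.8, 33.2 and 34.3 in WT and 35.4, 39.8 and 36.8 in knockdown cells. With log2(TPM + 1) the difference was 0.14 (adjusted p = 0.223 in limma), so no direction can be given for Smad4. Smad3 (ENSMUSG00000032402) lies on chromosome 9 from 63646767 to 63757994, minus strand. Smad2 (ENSMUSG00000024563) and Smad4 (ENSMUSG00000024515) lie on chromosome 18, Smad2 from 76241580 to 76310963 on the plus strand and Smad4 from 73639009 to 73703780 on the minus strand.

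Smad7 encodes the inhibitory SMAD that binds the activated type I receptor and recruits ubiquitin ligases to it. In WT cells Smad7 stood at 10.7, 11.8 and 12.4 CPM, and in knockdown cells at 26.4, 25.04 and 21.5 CPM. The 3 WT libraries lay close together, and the lowest knockdown library was well above the highest of them. Smad7 thus averaged 11.6 ± 0.860 CPM (SD, n = 3) over WT and 24.3 ± 2.53 CPM (SD, n = 3) over knockdown libraries. Without WT replicate 1 the log2 fold change was 0.99 (SE 0.106, adjusted p = 9.19e-05 in edgeR), which is 198.5% of the WT level. With all 6 libraries it was 1.06 (SE 0.143), with an adjusted p of 0.0919 in edgeR, and Smad7 ranked 36 of 14679 genes by p. In TPM, Smad7 measured 5.18, 11.01 and 9.49 in WT and 21.8, 23.3 and 17.7 in knockdown cells, and the groups did not overlap in this unit either. Smad7 (ENSMUSG00000025880) maps to the plus strand of chromosome 18, from 75367529 to 75395935.

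Skil encodes SnoN, a co-repressor that binds SMAD complexes, and like Smad7 it is a TGF-beta-induced feedback gene. Without WT replicate 1 it had the opposite sign to Smad7. Skil measured 25.8, 53.9 and 56.9 CPM in WT and 52.2, 46.5 and 46.5 CPM in knockdown cells. WT replicate 1 was the lowest of all libraries, and the knockdown libraries lay just under WT replicates 2 and 3. Without WT replicate 1 the log2 fold change was -0.21 (SE 0.0656, adjusted p = 0.0288 in edgeR). Over all 6 libraries it was 0.09 (SE 0.305, adjusted p = 0.896). The call without WT replicate 1 was lost in 12 of 20 alternative settings. Among these were DESeq2 (log2 fold change -0.20), removal of the GC trend (-0.06), and a further fit that left out WT replicate 2, WT replicate 3, knockdown replicate 2 or knockdown replicate 3 (-0.25 to -0.17). Skil (ENSMUSG00000027660) lies on chromosome 3 from 31095058 to 31122577, plus strand.

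Set against Smad3, Smad7 was higher in each knockdown library. Smad7 over Smad3, in TPM, gave 0.398, 0.243 and 0.223 in WT and 0.541, 0.528 and 0.414 in knockdown cells. This ratio, too, was chosen after the values were seen. The lowest knockdown library was just above WT replicate 1. The mean was 0.288 ± 0.0958 (SD, n = 3) in WT and 0.494 ± 0.0700 (SD, n = 3) in knockdown cells. Of the same 14404 genes, 8.84% had a ratio to Smad3 that was higher in all knockdown than in all WT libraries.

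**Figure D3:**
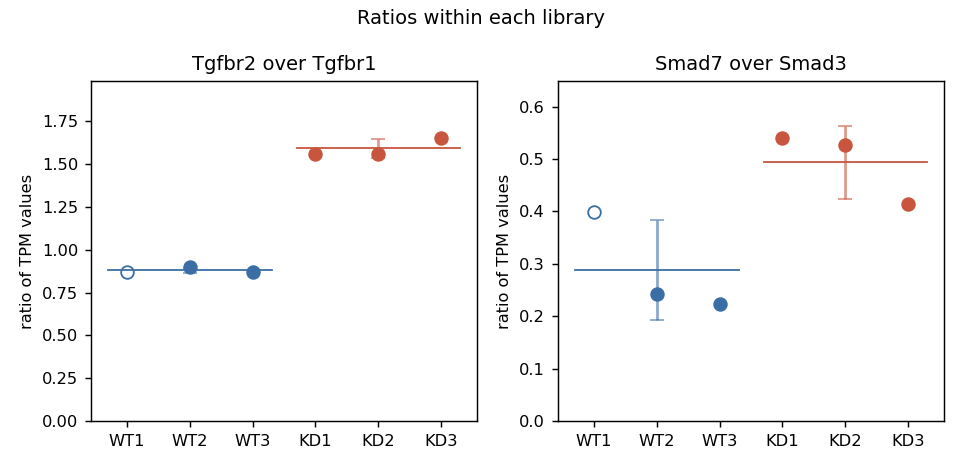
Ratio of TPM values (vertical axis, from 0) within each library (horizontal axis) for Tgfbr2 over Tgfbr1 and for Smad7 over Smad3, with WT in blue, knockdown in red and WT replicate 1 as an open point. Lines and bars are the mean and SD of 3 libraries, and in both panels every knockdown library lies above every WT library.

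Levels are compared between genes here in the deposited TPM, a unit corrected for length. That correction did not follow the deposited length alone. In WT replicate 2, Tgfbr2 over Tgfbr1 was 0.898 in TPM and 0.634 from expected counts per deposited length. Smad7 over Smad3 differed less there (0.243 and 0.237). The deposited length was 2410 bases for Smad2, 1882 for Smad7 and 3485 for Tgfb2, against 8089, 4278 and 5116 bases in the longest annotated transcripts. For the other 7 members both lengths were equal, Tgfbr1 and Tgfbr2 among them. In WT replicates 2 and 3 the order was Tgfbr1 (46.1), Smad3 (43.9), Smad2 (42.2), Tgfbr2 (40.7), Smad4 (33.8), Tgfb1 (29.1), Skil (13.5), Tgfb3 (11.2), Smad7 (10.2) and Tgfb2 (2.94), as mean TPM. The ranges of Smad3 and Smad2 overlapped, as did those of Tgfb3 and Smad7. In the knockdown libraries Tgfbr2 was first at 50.8 ± 0.839 TPM (SD, n = 3), and Tgfbr1 was sixth at 32.0 ± 1.59 TPM (SD, n = 3). The order depends on the unit. Tgfbr2 had 4567, 5243 and 4923.64 expected counts in these libraries over a deposited length of 8092 bases. Smad3 had 3040, 3724 and 3527 over 5090 bases. Per deposited base, Tgfbr2 thus lay below Smad3 in each knockdown library. Smad7, at 20.9 ± 2.88 TPM (SD, n = 3), was seventh there, above Skil at 12.9 ± 0.422 TPM (SD, n = 3). Neighbours whose ranges overlapped in the knockdown libraries were Smad3 and Smad2, Smad4 and Tgfb1, and Tgfb1 and Tgfbr1. WT replicate 1 gave another order, with Tgfb1 first at 35.01 TPM and Smad2 next at 15.1.

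Around these members, 13 genes act in storage and activation of the ligand. Leaving out WT replicate 1, 4 rose, 4 fell and 5 were not called, beside 16.3% higher and 18% lower over all genes, and the median log2 fold change was 0.01. Thbs1, which encodes an activator of latent TGF-beta, rose by 0.67 on the log2 scale, and the secreted protease gene Adamts1 rose by 0.74. Over all 6 libraries their values were 1.01 and 1.06. Itgav, the alpha subunit of integrins that release the ligand, fell by 0.45 on the log2 scale, and was at -0.21 over all 6 libraries. Itgb6 and Itgb8, the integrin beta subunit genes of this list, averaged only 0.247 and 0.472 TPM and were not called. Ltbp1 and Ltbp2, latent TGF-beta binding protein genes, were lower (-0.26 and -0.28), but the sign of both turned with WT replicate 1 included (0.02 and 0.04). Ltbp3, at 0.23 and over all 6 libraries at 0.54, was called in the other direction with the GC trend removed (-0.17).

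Of 24 accessory receptors and pathway regulators, 23 were tested without WT replicate 1, and 7 rose, 6 fell and 10 were not called (median 0.04), where 34.3% of all genes were called, 16.3% as higher and 18% as lower. Smad6, the other inhibitory SMAD gene, rose by 1.16 on the log2 scale, from 2.93 and 2.50 CPM in WT replicates 2 and 3 to 8.35, 5.199 and 4.87 CPM in the knockdown libraries. With 1.80 CPM in WT replicate 1, the groups did not overlap in any library, and the log2 fold change over all 6 was 1.34. As for Smad7, knockdown replicate 1 was the highest. The ubiquitin ligase genes Stub1 and Wwp1 were lower (-0.33 and -0.42), and stood at -1.02 and -0.24 over all 6 libraries. Strap, whose product binds the receptors and SMAD7, was higher without WT replicate 1 (0.17) and had the opposite sign with it (-0.24). Fkbp1a, whose product holds TGFBR1 inactive, was not called (0.04), and was at -0.61 with all 6 libraries. The co-receptor gene Eng was called, but lay below 1 CPM in every library.

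Of 27 genes of the BMP and activin arm, which signals through related receptors, 21 were tested, and without WT replicate 1, 4 rose, 3 fell and 14 were not called (median 0.20). The share called is near the 34.3% over all genes (16.3% higher, 18% lower). The ligand genes Bmp2 (1.23, and 0.88 over all 6 libraries) and Bmp6 (1.19 and 1.27) rose, the latter from 0.842 and 1.27 CPM in WT replicates 2 and 3. Id1, a direct target of BMP signalling, was at 9.13 and 8.11 CPM there and at 37.4, 17.8 and 21.1 CPM in knockdown libraries. Its adjusted p was 0.0713 in edgeR, however, and WT replicate 1, at 25.4 CPM, was above 2 of the knockdown libraries. Of its family, Id2 (0.03) and Id3 (0.43) were not called without WT replicate 1 either, and Id4 was not tested. Both the activin receptor gene Acvr2a (-0.46, and -0.24 over all 6 libraries) and Fst, which encodes the activin-binding follistatin (-0.46 and -0.56), fell. The activin type I receptor gene Acvr1b was higher (0.20 and 0.52). The more abundant Bmp4 (0.14 and 0.14) and the BMP antagonist gene Grem1 (0.03 and 0.23) were not called.

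TGF-beta target genes were called in both directions. Of 25 listed, 23 were tested, and without WT replicate 1, 4 rose, 4 fell and 15 were not called (median 0.01). That share, too, is near the 34.3% of all genes (16.3% higher, 18% lower). The transition factors Snai1 (0.57, and 0.78 over all 6 libraries) and Snai2 (0.51 and 0.48) rose. Zeb1 (-0.0017), Zeb2 (-0.14) and Cdh2 (0.04), also linked to the transition, were not called without WT replicate 1. Of the epithelial and ductal markers, Cdh1 (0.42), Krt7 (0.49) and Krt18 (0.17) were called higher there, and Epcam (-0.23) lower. The chromatin protein gene Hmga2 (-0.94 and -0.87) and the protease inhibitor gene Timp1 (-0.44 and -1.16) fell. Fibronectin, Fn1, fell without WT replicate 1 (-0.25) and had the opposite sign with it (0.18). The intermediate filament gene Vim (0.06 and -0.45) and Tsc22d1 (0.07 and -0.26) were not called. Junb, an immediate early gene that TGF-beta induces, had the largest difference in this list, 2.25 on the log2 scale and 2.64 over all 6 libraries. It was at 3.77, 13.1 and 10.9 CPM in WT and 98.1, 34.7 and 40.7 CPM in knockdown cells, where replicate 1 stood far above the others, and it was not called in either fit (adjusted p = 0.102 and 0.151 in edgeR). Id1 and Junb are named after their values were seen, as are Id2, Id3, Id4, Zeb1, Zeb2, Cdh2, Itgb6, Itgb8 and the epithelial markers given here.

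With the GC trend removed, where 15.3% of all genes were called higher and 15.9% lower, 4 target genes rose and 7 fell, and Snai1 (0.27) was no longer called. The counts higher and lower were then 3 and 6 for ligand storage, 6 and 4 for regulators, and 5 and 2 for the BMP and activin arm. With all 6 libraries none of the members of the 4 lists was called by edgeR. Their medians were then 0.37 for ligand storage, 0.24 for regulators, 0.23 for the BMP and activin arm and 0.18 for target genes. The median over all genes was -0.02. Without WT replicate 1 the medians of the 4 lists were, in that order, 0.01, 0.04, 0.20 and 0.01, against -0.01 over all genes.

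**Figure D4:**
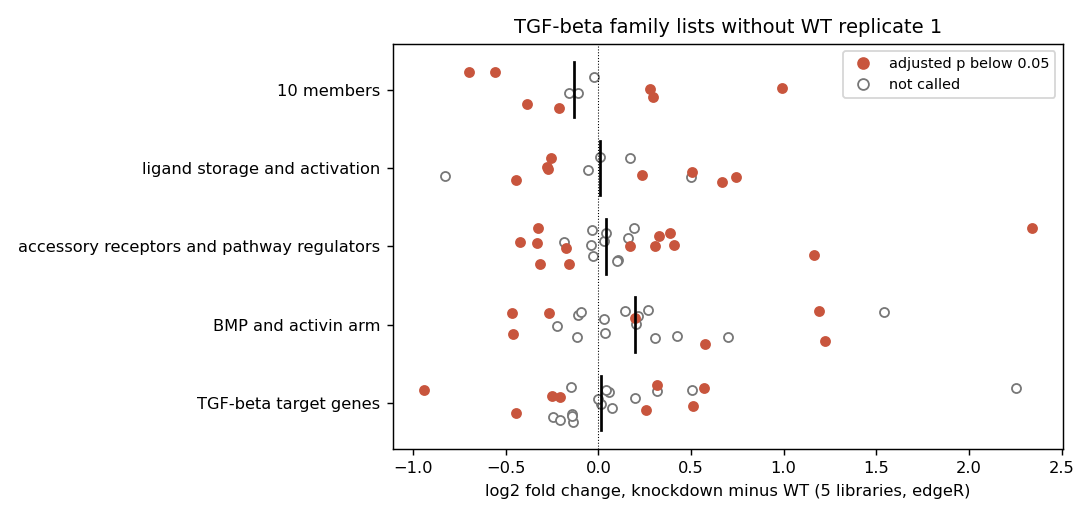
Log2 fold change, knockdown minus WT, without WT replicate 1 (horizontal axis) for the tested genes of 5 lists (vertical axis, points spread for visibility), with called genes filled and the median of each list as a bar. Called genes lie on both sides of 0 in every list, and the medians run from -0.13 for the 10 members to 0.20 for the BMP and activin arm.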

How the data were processed

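The authors deposited expected counts per gene and a table of TPM per gene. The submitters' processing notes list, without roles or versions, fastp, HISAT2, StringTie, DESeq2 and human builds (hg38, GRCh38), yet the tables carry mouse gene identifiers. The program that quantified the genes is not given in the sources used here. Columns of group means were not used. Counts were rounded, filtered with filterByExpr, scaled by TMM and tested in edgeR 4.0.16 (quasi-likelihood, robust, two-sided) under R 4.3.3. SE were taken from the log2 fold change and its F statistic. Alternatives used DESeq2 1.42.0, limma 3.58.1, and lowess trends (span 0.3) as offsets. GC content was known for 96.5% of tested genes. Scripts were tested on simulated data. Members, lists and the fit without WT replicate 1 were chosen with earlier results of these data known. From each list the text names the 3 genes of highest mean TPM, and among those called without WT replicate 1 the 2 highest and 2 lowest. Positions and transcripts are from GENCODE M21 (GRCm38).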

Additional observations from a re-analysis of the deposited data

How the results depend on the processing

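Without WT replicate 1, Smad7 (log2 fold change 0.82 to 1.08), Tgfbr1 (-0.60 to -0.37) and Tgfbr2 (0.29 to 0.41) were called with the same sign in all 20 alternatives. Tgfb2 was called in 17 of them, Tgfb3 in 15, Skil in 8, and Tgfb1 in 8, of which 1 was in the other direction. The length and GC trends removed together, quality weights and the settings of the ratios were chosen after the data were examined.

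The 7 called members became 3 with log2(TPM + 1) and with log2(TPM + 0.1), 4 at a threshold of 0.01, and 3 to 7 when 1 further library was left out (3 without WT replicate 3, 4 without knockdown replicate 3). The 5193 called genes became 2464, 2544 and 3217 in those 3 settings, and 2599 without WT replicate 3 to 6188 without knockdown replicate 1 (3124 without WT replicate 2). Where 1 WT library remained, its spread was taken from the knockdown libraries.

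Over 6 libraries edgeR called 0 genes. Library totals gave 1 call, testing every gene 4, DESeq2 1127, limma-voom 9 and edgeR without robust estimation 5. There were 3 calls with the GC trend removed, 879 with the length trend removed, 567 with both removed, 5906 with quality weights, and 0 to 5193 when 1 library was left out (5193 without WT replicate 1). The count of 0 members became 1 in DESeq2, with the length trend removed and with both trends removed, in each case Smad7, then 7 with quality weights, and 0 to 7 with 1 library left out. Smad7 and Tgfbr2 kept a positive sign and Tgfb2 a negative one in all 21 alternatives.

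Signs turned as follows over 6 libraries. Smad2 was at -0.0079 with DESeq2 size factors, -0.0084 in DESeq2, -0.12 with quality weights, and -0.16 to 0.0944 with 1 library left out. Smad4 was at 0.0838 with library totals, 0.0091 without a filter, 0.58 with log2(TPM + 1), 0.61 with log2(TPM + 0.1), 0.0153 with the GC trend removed, and -0.11 to 0.0385 with 1 library left out. TPM settings shifted all genes by a median of 0.26 (pseudocount 1) and 0.30 (pseudocount 0.1). There Tgfb3 was at 0.11 and 0.14 and Tgfbr1 at 0.14 and 0.16, all below that median. Skil was at -0.0696 with the length trend removed, -0.22 with quality weights, and -0.21 to 0.27 with 1 library left out. Tgfb1 was at -0.32 with the GC trend removed and -0.29 with both removed. Smad3 ran from -0.0228 to 0.36 with 1 library left out. Without WT replicate 1, Smad3 was at 0.0111 with library totals, 0.0057 with the replicate block, 0.0278 with the length trend removed, and -0.0478 to 0.0159 with 1 library left out. Smad4 was at 0.14 with either TPM setting. Tgfb1 was at -0.20 with the GC trend removed and -0.21 (adjusted p = 0.0339) with both removed. The cause was not tested.

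Deviations from the group means correlated at -0.115, 0.0201 and -0.142 for replicate numbers 1, 2 and 3. WT replicates 2 and 3 gave nearly equal correlations with each knockdown library, such as 0.108 and 0.0995 with knockdown replicate 1. The WT deviations rest largely on WT replicate 1, so these correlations cannot tell whether replicate numbers pair the libraries. With the replicate block 0 members and 0 genes were called over 6 libraries, and 6 members and 5753 genes without WT replicate 1.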
